A study of Mus musculus with 24 samples.

Results

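The zinc finger genes with symbols from Zfp900 upwards were followed in BAP1-AID and UTX-AID mouse embryonic stem cells (ESCs). A gene was taken as a member when its symbol was Zfp9 followed by a further 2 digits and its mean over the 24 libraries was at least 0.5 CPM (the count of a gene scaled to 1000000 counts in its library). The rule found 60 members among the 26264 genes of the table. Only 1 further gene of this name pattern is listed, Zfp957, at 0 in every library. The members nearest to the minimum were Zfp968 at a mean of 0.739 CPM, Zfp964 at 0.756 CPM and Zfp965 at 0.925 CPM. For comparison, 284 other numbered Zfp genes met the same CPM minimum.

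Most genes with these names encode KRAB zinc finger proteins. Their tandem C2H2 zinc fingers read DNA sequence, and the KRAB domain recruits TRIM28 (KAP1), which brings SETDB1 and H3K9 methylation to the bound site. In ESCs such proteins are known for silencing transposable elements. The genes arose by repeated local duplication, so many lie in clusters of close copies.

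BAP1 is a deubiquitinase that removes H2AK119ub1, and UTX (Kdm6a) is an H3K27me3 demethylase. In the BAP1-AID line the endogenous BAP1 carries an HA-AID degron tag, and in the UTX-AID line UTX does. Both lines also overexpress TIR1, so that indole-3-acetic acid (IAA, a plant auxin) leads to degradation of the tagged protein. Each line was grown without IAA (−IAA) and with IAA (+IAA) and collected at 0, 3 and 6 h of retinoic acid (RA), a vitamin A derivative that starts differentiation. This gave 12 groups of 2 libraries. In the paper IAA was given for 2 h before RA, so in the +IAA arms the time since IAA was added rose with RA time. Each line is taken as 1 clone and untagged ESCs are not analysed here, so the tag, the clone and the set of libraries cannot be told apart in a comparison of the lines. The labels do not say whether the 2 replicates of a group came from separate cultures, so p-values measure the spread between these libraries, which may be technical.

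The counts of a library summed to between 42018795 and 54034789. At that depth 3 counts, taken as the smallest detectable amount, were worth between 0.0555 and 0.0714 CPM. The RNA of the tagged genes does not check the labels, because the degron acts on the protein: Bap1 was between 90.6 and 105 CPM in BAP1-AID libraries, and Kdm6a between 96.1 and 126 CPM in UTX-AID libraries. The 9 ESC markers summed to between 3972.8 and 5042.2 CPM in all libraries. The 8 markers of two-cell-like cells summed to between 0.744 and 1.9 CPM in BAP1-AID and between 18.3 and 37.3 CPM in UTX-AID, and the 8 fibroblast or feeder markers to between 10.6 and 17 CPM and between 3.74 and 9.39 CPM. Postn was at 0 in every group and Lum at 0 in UTX-AID. Neural markers (4 genes) summed to between 81.0 and 96.8 CPM in BAP1-AID and between 51.2 and 75.8 CPM in UTX-AID, and primitive endoderm markers (6 genes) to between 1.31 and 7.64 CPM. The part of these marker differences in the results was not tested. In bulk RNA, fewer cells of a type and less RNA per cell cannot be told apart.

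All 60 members were found in the GENCODE M39 annotation of mm39. Of these, 58 have an annotated protein, and 55 of the 58 proteins carry letters typical of a KRAB domain within their first 150 residues, against 309 of 19091 proteins (1.62%) of all genes in the table. The proteins of Zfp945, Zfp956 and Zfp974 carry none. Zfp939 and Zfp996 are annotated as pseudogenes. The proteins hold between 0 and 21 C2H2 fingers, with a median of 11, and Zfp974 holds the most. Zfp972 has an annotated protein of 92 residues with 0 fingers.

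The members sit close together in the genome. With no more than 1 Mb between neighbours, 41 of the 60 members fell into 6 runs and 19 stood alone. The run on chromosome 4 (chr4:145237287-147932882) holds 13 members, the run on chromosome 17 (chr17:21787117-23086292) holds 10 and the run on chromosome 2 (chr2:175214229-177720294) holds 9. Shorter runs lie on chromosome 7 (4 members), chromosome 8 (3 members) and chromosome 13 (2 members). Close copies share reads, so the counting could split or misplace them. The percent of a member's exonic 50-base words that also occur in exons of another gene ranged from 0.2 to 100 with a median of 21.25, and was at least 50 in 16 members. All 50-base words of Zfp966 recur in other genes. The exons of members had a median GC content of 39.2% (35.1 to 67.0%), against 49.2% over the 16208 tested genes with a match in the annotation.

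Sequence upstream of the chromosome 2 run is shown because its members went in opposite directions between the clones while most of them are similar upstream. Each sequence is the 250 bases before the outermost annotated start of the gene, read on the gene's own strand from the mm39 genome. The capitals mark a run of 30 bases that is identical in all 9 members of the run. Zfp965 and Zfp971 were lower in UTX-AID, and Zfp967 and Zfp931 were higher:
Zfp965 (chr2:175311528-175311777, plus strand): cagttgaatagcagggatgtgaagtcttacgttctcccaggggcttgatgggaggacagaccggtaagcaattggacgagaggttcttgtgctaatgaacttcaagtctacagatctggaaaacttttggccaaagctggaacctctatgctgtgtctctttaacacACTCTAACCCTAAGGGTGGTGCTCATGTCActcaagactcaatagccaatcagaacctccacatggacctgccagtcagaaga
Zfp971 (chr2:177664792-177665041, plus strand): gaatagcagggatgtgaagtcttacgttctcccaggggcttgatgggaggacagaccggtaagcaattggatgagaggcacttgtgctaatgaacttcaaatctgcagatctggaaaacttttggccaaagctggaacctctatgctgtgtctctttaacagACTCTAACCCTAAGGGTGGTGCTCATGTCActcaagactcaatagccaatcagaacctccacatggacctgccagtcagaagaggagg
Zfp967 (chr2:176212543-176212792, plus strand): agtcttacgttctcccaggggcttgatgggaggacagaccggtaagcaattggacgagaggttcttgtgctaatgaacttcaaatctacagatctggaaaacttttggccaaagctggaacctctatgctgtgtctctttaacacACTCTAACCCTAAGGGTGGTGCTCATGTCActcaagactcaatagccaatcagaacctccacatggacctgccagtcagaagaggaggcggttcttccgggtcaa
Zfp931 (chr2:177720295-177720544, minus strand): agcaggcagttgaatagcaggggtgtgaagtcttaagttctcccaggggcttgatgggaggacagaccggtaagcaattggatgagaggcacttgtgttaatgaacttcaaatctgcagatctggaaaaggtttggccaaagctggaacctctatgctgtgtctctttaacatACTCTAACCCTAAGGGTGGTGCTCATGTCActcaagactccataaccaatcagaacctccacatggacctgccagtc

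The upstream sequences of Zfp965 and Zfp967 were 90.8% identical in a global alignment, and those of Zfp971 and Zfp931 were 92.4% identical. Both are pairs of opposite direction, as are Zfp970 and Zfp931 at 95.2%. Of same-direction pairs, Zfp966 and Zfp967 (higher) were 98.4% identical, Zfp965 and Zfp970 (lower) 97.2%, and Zfp966 and Zfp931 (higher) 82.8%. Zfp972, which was lower, was 70.8 to 78.0% identical to the others. Whether upstream sequence relates to direction was not tested. Over the 36 pairs of the 9 members the identity ranged from 70.8 to 100% with a median of 91.0%, and Zfp965 and Zfp973 were identical over all 250 bases. The 30 shared bases occur upstream of 27 of the 16208 tested genes (0.167%), all on chromosome 2. Zfp971 and Zfp931 lie on opposite strands and their annotated gene bodies overlap.

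For the chromosome 4 run, the 3 members Zfp990, Zfp987 and Zfp985 are shown as examples of close copies upstream. All 13 members of the run were higher in UTX-AID, close copies or not. The capitals mark the 48 bases that all 3 share, which no other tested gene holds in this window:
Zfp990 (chr4:145237037-145237286, plus strand): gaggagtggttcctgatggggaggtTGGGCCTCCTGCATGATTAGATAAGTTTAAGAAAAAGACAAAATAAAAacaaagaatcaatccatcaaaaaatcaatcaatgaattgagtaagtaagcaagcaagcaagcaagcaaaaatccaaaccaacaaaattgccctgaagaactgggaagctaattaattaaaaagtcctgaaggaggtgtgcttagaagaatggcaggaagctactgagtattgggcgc
Zfp987 (chr4:146033571-146033820, plus strand): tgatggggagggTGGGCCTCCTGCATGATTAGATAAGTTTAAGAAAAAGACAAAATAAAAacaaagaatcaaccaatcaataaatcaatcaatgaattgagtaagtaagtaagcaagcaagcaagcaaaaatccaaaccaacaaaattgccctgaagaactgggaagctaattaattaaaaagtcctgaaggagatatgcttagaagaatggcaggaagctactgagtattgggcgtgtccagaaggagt
Zfp985 (chr4:147637429-147637678, plus strand): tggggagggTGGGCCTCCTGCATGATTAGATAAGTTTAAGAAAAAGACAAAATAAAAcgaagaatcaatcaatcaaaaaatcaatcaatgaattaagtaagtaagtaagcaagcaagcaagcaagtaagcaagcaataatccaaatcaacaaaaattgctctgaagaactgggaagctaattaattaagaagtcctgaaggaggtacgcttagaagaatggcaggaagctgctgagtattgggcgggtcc

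These sequences were 89.2 to 92.0% identical to each other, against a median of 58.2% over the 78 pairs of the run. They were chosen as close copies, so their high identity follows from the choice. Zfp980, not shown, was 90.8% identical to Zfp990 and 87.2% to Zfp987 and to Zfp985. For the 45 pairs of the chromosome 17 run the median was 57.6%. The letters CCAAT, searched on both strands, were present upstream of 45 of 60 members (75%), against 5676 of 16208 tested genes (35.0%). All 9 members of the chromosome 2 run and 11 of 13 members of the chromosome 4 run held them. Windows that are close copies of each other are not independent cases in this count. The upstream windows of members had a median GC content of 47.8%, against 53.6% over the tested genes. They had a median of 4 CpG dinucleotides, against 9 over the tested genes. Whether base composition accounts for the difference in CCAAT was not tested. These matches are descriptions of the letters and not of binding.

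The question of how the 2 clones differ before any protein was depleted was addressed without IAA, over the 3 RA times. Members were far more abundant in UTX-AID. The summed level of the 60 members was between 781 and 1004.1 CPM in the 6 BAP1-AID libraries and between 3826.4 and 4552.8 CPM in the 6 UTX-AID libraries, and the groups did not overlap. Of the 60 members, 51 were higher in UTX-AID and 6 were lower at an adjusted p under 0.05 by edgeR's quasi-likelihood test. Over all 16816 genes tested, 33.6% were higher and 33.7% were lower. With a log2 fold change over 1 required as well, 45 members were higher and 5 were lower, against 16.3% and 8.31% of all genes. The median log2 fold change of the members was 1.79, against 0.50 for the 284 other numbered Zfp genes and 0.05 for all genes. In 48 members every UTX-AID library was above every BAP1-AID library, and in 5 every one was below, against 21.9% and 22.3% of all genes.

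The size of this difference changed with base composition. Across genes, which are not independent replicates, the clone difference fell with GC content (Spearman's rho −0.334, n = 16208 genes). With offsets for GC content and exon length in each library, 41 members were higher and 10 lower, 19 and 6 of them with a log2 fold change over 1, and the median was 0.71. Over all 16816 genes with these offsets, 5673 were higher and 5281 lower, 2187 and 1110 of them over 1, and the median was 0.07. Of the 57 members that passed, Zfp938, Zfp946, Zfp949, Zfp952, Zfp958, Zfp977 and Zfp983 turned to the other sign with the offsets. Of these 7, 3 then passed as lower in UTX-AID by edgeR: Zfp946 (−0.30, adjusted p = 0.0091), Zfp949 (−0.23, adjusted p = 0.00369) and Zfp983 (−0.50, adjusted p = 0.0483). Zfp954 and Zfp941 overlapped between the clones, with BAP1-AID and UTX-AID ranges of 15.3 to 19.7 and 15.2 to 19.0 CPM for Zfp954 and of 19.7 to 27.7 and 19.5 to 25.7 CPM for Zfp941. Together with Zfp968 they were the 3 members that did not pass on the counts. With the offsets Zfp941 passed as lower in UTX-AID (−0.58, edgeR adjusted p = 1.83e-08).

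**Figure D1:**
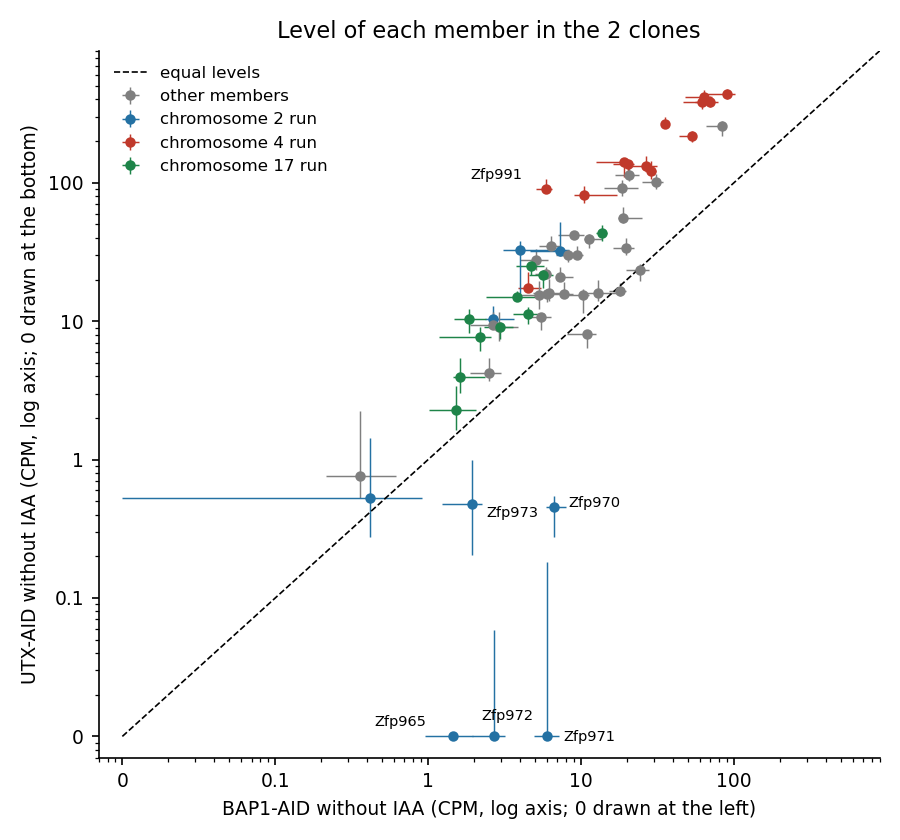
Median CPM of each of the 60 members in the 6 libraries per clone without IAA, BAP1-AID on the horizontal and UTX-AID on the vertical log axis, with bars from the lowest to the highest library and values of 0 drawn at the edge. Most members lie above the dashed line of equal levels, while 5 named members of the chromosome 2 run lie far below it.

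The chromosome 4 run carried most of the members' RNA. It made up 49.8 to 60.8% of the members' summed CPM in BAP1-AID libraries and 67.1 to 69.1% in UTX-AID libraries. All 13 of its members were higher in UTX-AID, with log2 fold changes from 2.05 to 3.97. Per kb of exons, 4 of the 5 most abundant members are in this run: Zfp978 at a mean of 90.9 CPM per kb over all libraries, Zfp980 at 58.1, Zfp979 at 44.9 and Zfp990 at 30.0. The other is Zfp996, a pseudogene of 324 bases on chromosome 12, at 63.1 CPM per kb.

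Zfp991, a gene of the chromosome 4 run whose protein has 11 fingers, differed most among members that rose. It was at 5.10 CPM in the lowest, 5.89 in the median and 6.47 in the highest BAP1-AID library, and at 84.1, 89.6 and 106 CPM in UTX-AID. The groups were far apart, and the log2 fold change was 3.97 (SE 0.0647, edgeR adjusted p = 2.73e-22). With the GC content and length offsets it was 2.74. Of the 50-base words of Zfp991, 64.2% also occur in other genes. Its close copy Zfp992, which holds 53.6% of its own 50-base words in common with Zfp991, was at 33.4, 35.7 and 37.4 CPM in BAP1-AID and at 249, 267 and 300 CPM in UTX-AID (log2 fold change 2.93, SE 0.0440, edgeR adjusted p = 8.58e-23).

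Other members of the run showed the same separation. Zfp980 was at 48.2, 64.0 and 72.2 CPM (lowest, median, highest) in BAP1-AID and at 383, 420 and 466 CPM in UTX-AID. Its log2 fold change of 2.80 (SE 0.0494, edgeR adjusted p = 7.11e-22) fell to 1.08 with the offsets. Zfp978, whose protein has 3 recognisable fingers, was at 46.3, 61.6 and 65.1 CPM in BAP1-AID and at 340.0, 385 and 441 CPM in UTX-AID (log2 fold change 2.71, 1.26 with the offsets). In both genes every UTX-AID library was above every BAP1-AID library. Of their 50-base words, 73.8% (Zfp980) and 72.7% (Zfp978) also occur in other genes.

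Zfp987 and Zfp988 encode proteins of equal length (633 residues with 14 fingers), and 23.8% of the 50-base words of Zfp988 also occur in Zfp987. Zfp987 was at 16.1, 20.4 and 22.3 CPM in BAP1-AID and at 119, 136 and 146 CPM in UTX-AID, a log2 fold change of 2.81 (SE 0.05, edgeR adjusted p = 7.39e-22). Zfp988 was at 12.6, 19.0 and 21.0 CPM and at 111, 141 and 151 CPM, a log2 fold change of 2.94 (SE 0.0571, edgeR adjusted p = 2.80e-21). With the offsets the values were 1.78 for Zfp987 and 1.33 for Zfp988. Zfp982, a gene linked to pluripotency in earlier work on ESCs, was at 9.03, 10.4 and 17.2 CPM in BAP1-AID and at 71.4, 81.1 and 94.1 CPM in UTX-AID (log2 fold change 2.89, 1.01 with the offsets).

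Genes inside the chromosome 4 run that are not members were mostly higher as well. Of 9 such genes tested, 7 were higher in UTX-AID and 0 were lower by edgeR, among them Rex2 at 60.9 to 95.0 CPM in BAP1-AID and 443 to 613 CPM in UTX-AID (log2 fold change 2.69). Zfp980 holds 56.6% of its 50-base words in common with Rex2. Zfp600, with which Zfp978 holds 45.8% of its 50-base words in common, had a log2 fold change of 2.75. Such close copies may share reads, so these genes are not independent of the members' counts. The remaining 2 of the 9 did not pass. Of 56 genes tested within 2 Mb on either side of the run, 15 were higher and 25 lower, with a median of −0.08. 

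The 10 members of the chromosome 17 run were all higher in UTX-AID, with log2 fold changes from 0.56 to 2.48 and a median of 1.77. Zfp994, whose protein has 17 fingers, was at 1.48, 1.84 and 2.40 CPM in BAP1-AID and at 8.20, 10.4 and 12.3 CPM in UTX-AID (log2 fold change 2.48, 1.29 with the offsets). Zfp942 was at 3.77, 4.72 and 5.70 CPM and at 21.7, 25.1 and 26.8 CPM (2.40, 0.76 with the offsets). It overlaps Zfp943 on the opposite strand at chr17:22181101-22181482, and reads within that stretch cannot be separated without strand. At the low end Zfp983 overlapped between the clones, at 1.01 to 2.05 CPM and 1.64 to 3.43 CPM (0.56, and −0.50 with the offsets). Of 9 other genes tested inside this run 8 were higher and 1 lower, and of 75 genes within 2 Mb of it 18 were higher and 33 lower.

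The members of the shorter runs were higher in UTX-AID too: 4 of 4 on chromosome 7, 3 of 3 on chromosome 8 and 2 of 2 on chromosome 13. Zfp930 on chromosome 8, which has almost no 50-base words in common with other genes (0.2%), was at 16.6, 20.7 and 24.1 CPM in BAP1-AID and at 103, 114 and 139 CPM in UTX-AID. The groups were far apart (log2 fold change 2.55, SE 0.0712, edgeR adjusted p = 7.62e-19, 1.49 with the offsets). Zfp976 on chromosome 7, whose protein has 18 fingers, was at 5.33 to 7.24 CPM and at 32.9 to 41.0 CPM (2.52, 1.04 with the offsets). Zfp964, next to the CPM minimum, overlapped between the clones at 0.214 to 0.612 CPM and 0.524 to 2.26 CPM.

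Among members that stand alone, Zfp937 on chromosome 2 was at 4.02, 5.06 and 6.07 CPM in BAP1-AID and at 23.5, 27.5 and 33.5 CPM in UTX-AID (log2 fold change 2.45, 1.33 with the offsets). Zfp961 was at 65.3, 84.1 and 86.3 CPM and at 217, 257 and 280.0 CPM (1.66, 1.43 with the offsets). The GC-rich pseudogene Zfp996 (67.0% GC) was at 6.91, 9.42 and 10.3 CPM and at 28.4, 30.3 and 35.2 CPM (1.81), and its difference was 2.12 with the offsets, higher than without them. Zfp938 on chromosome 10 was at 5.20 to 6.57 CPM and 13.8 to 16.9 CPM, and its log2 fold change of 1.40 became −0.16 with the offsets.

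**Figure D2:**
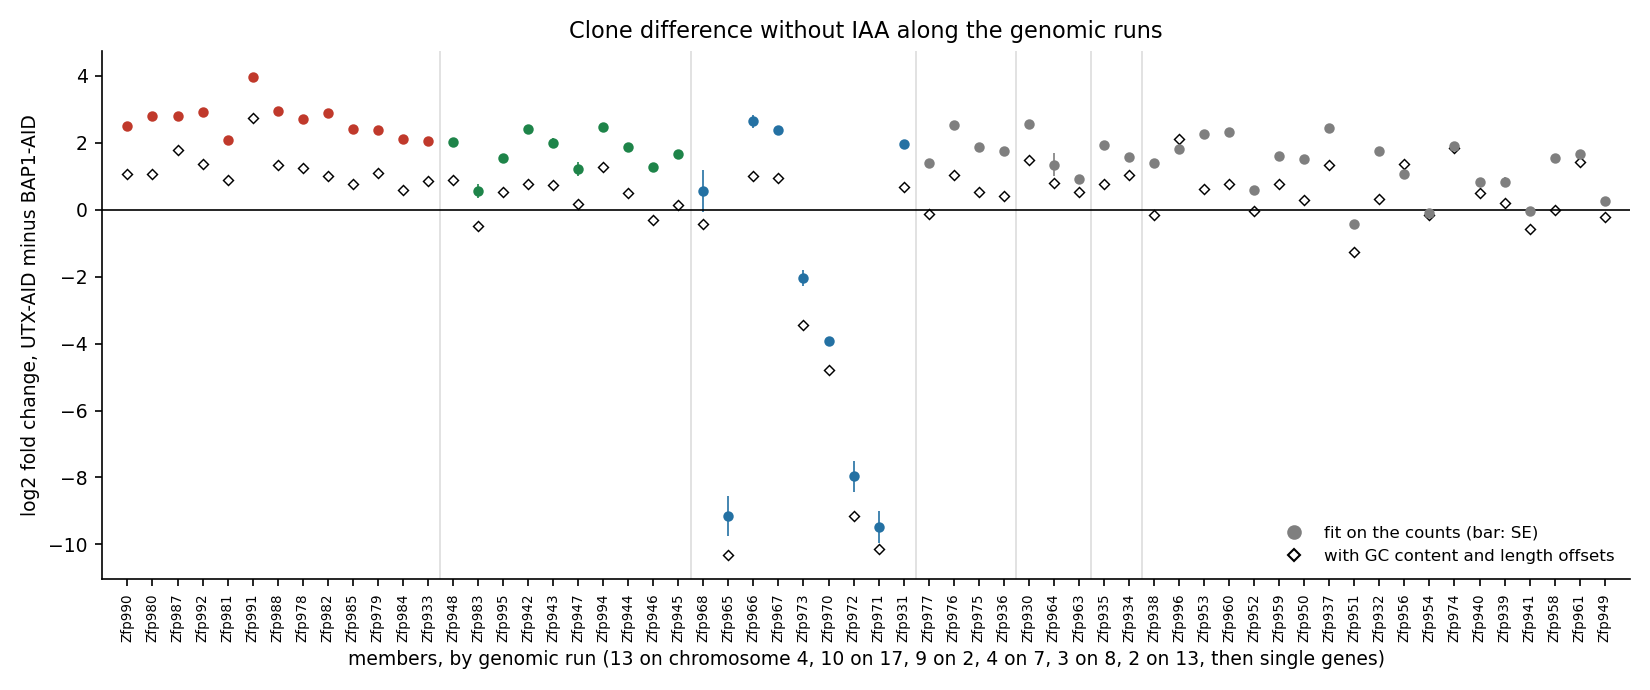
log2 fold change of each member, UTX-AID minus BAP1-AID without IAA, ordered by genomic run, with filled points for the fit on the counts (bars, SE) and open diamonds for the fit with GC content and length offsets. All 13 members of the chromosome 4 run lie above 0 in both fits, and the chromosome 2 run holds 3 members above 0 that passed and 5 below. The plotted values of Zfp965, Zfp971 and Zfp972 depend on the prior count of the fit and are no bound.

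The chromosome 2 run went against the other runs. Its members Zfp966, Zfp967 and Zfp931 were higher in UTX-AID, Zfp965, Zfp970, Zfp971, Zfp972 and Zfp973 were lower, and Zfp968 did not pass. Zfp965 was at 0.957, 1.46 and 1.98 CPM (lowest, median, highest) in BAP1-AID without IAA and at 0 in all 6 UTX-AID libraries. It was also at 0 in the 6 UTX-AID libraries with IAA. Set against 3 counts in the shallowest library of the group, Zfp965 was at least 20.2-fold lower in UTX-AID without IAA. With IAA it was at least 35.5-fold lower. These bounds hold for the counts as assigned, as 96.3% of the 50-base words of Zfp965 also occur in other genes.

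Zfp971 was at 4.96, 5.96 and 7.23 CPM in BAP1-AID, and 5 of the 6 UTX-AID libraries were at 0, with 8 counts in all. Zfp972 was at 1.93, 2.70 and 3.19 CPM in BAP1-AID, and 4 of the 6 UTX-AID libraries were at 0, with 4 counts in all. With IAA, Zfp971 was at 0 in 2 and Zfp972 in 5 of the 6 UTX-AID libraries, with 24 and 2 counts in all. Both genes were therefore near or below the detection limit in UTX-AID and clearly above it in every BAP1-AID library. Zfp970, a gene whose protein has 14 fingers, was at 5.92, 6.62 and 7.97 CPM in BAP1-AID and at 0.276, 0.452 and 0.543 CPM in UTX-AID (log2 fold change −3.93, SE 0.141, edgeR adjusted p = 6.08e-17). Zfp973 was at 1.24, 1.93 and 2.24 CPM and at 0.204, 0.477 and 1.00 CPM (log2 fold change −2.04, SE 0.253, edgeR adjusted p = 1.84e-07). With the offsets the values were −4.80 for Zfp970 and −3.43 for Zfp973.

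In the same run Zfp966 was at 3.10, 3.98 and 8.35 CPM in BAP1-AID and at 14.6, 32.7 and 38.0 CPM in UTX-AID, a log2 fold change of 2.64 (SE 0.206, edgeR adjusted p = 7.42e-11). Zfp967 was at 4.63, 7.33 and 7.85 CPM and at 29.4, 32.4 and 52.1 CPM (log2 fold change 2.38). With the offsets the values were 1.01 for Zfp966, 0.94 for Zfp967 and 0.69 for Zfp931, against 1.98 for Zfp931 on the counts. Neither Zfp966 nor Zfp967 overlapped between the clones, but both share nearly all of their exonic words with Zfp968 (100% and 95.6%), so their levels cannot be assigned to single copies with certainty. Zfp968 itself was between 0 and 0.908 CPM in BAP1-AID and between 0.276 and 1.43 CPM in UTX-AID. Zfp965 shares 83.2% of its words with Zfp973, whereas Zfp970 shares 36.6% and Zfp971 23.1% with Zfp968, the partner with most words in common for both.

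**Figure D3:**
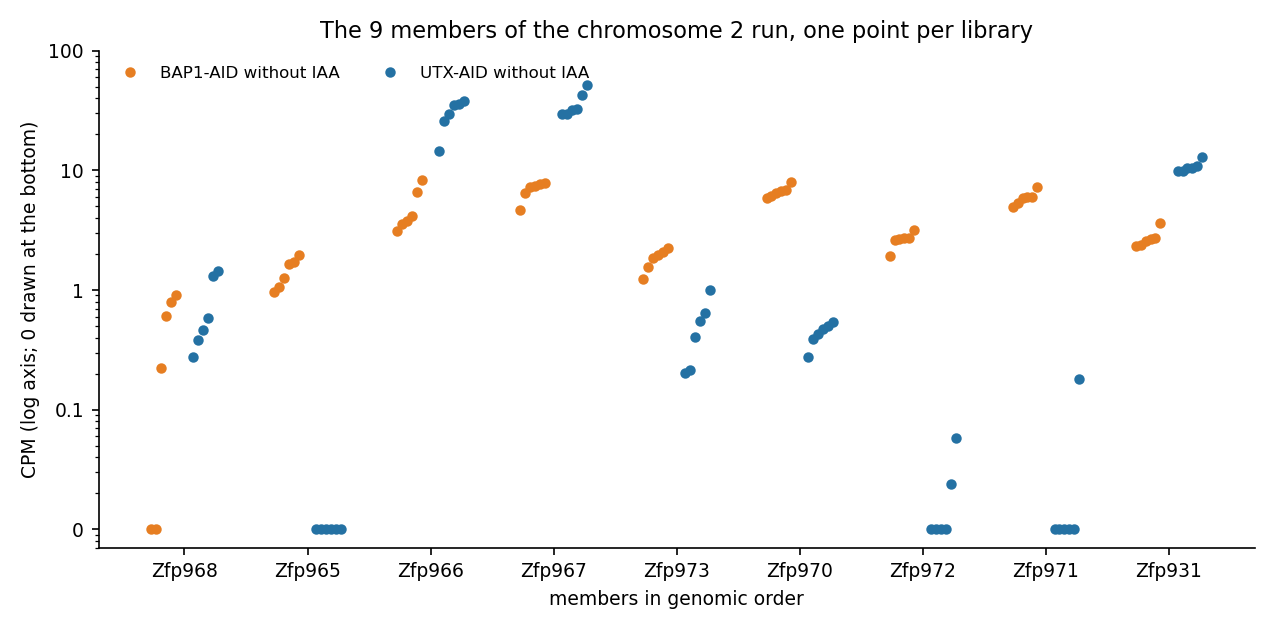
CPM of the 9 members of the chromosome 2 run on a log axis, 1 point per library without IAA, sorted by value within each clone, with 0 drawn at the bottom. Zfp965, Zfp972 and Zfp971 sit at or near 0 in UTX-AID, while Zfp966, Zfp967 and Zfp931 sit above their BAP1-AID levels, and the sorted order within a clone carries no meaning.

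Of 18 further genes tested inside the chromosome 2 run, 11 were lower in UTX-AID and 4 were higher. Gm14322, at 9.79 to 12.8 CPM in BAP1-AID, and Gm14403, at 4.97 to 8.91 CPM, were at 0 in all 6 UTX-AID libraries. Among the 27 genes that hold the 30 shared upstream bases, 8 were higher, 15 were lower and 4 did not pass. Most of these 27 are the 9 members and the further genes just counted. The 30 bases were chosen as shared by all 9 members, which went both ways, so no conclusion on direction is drawn. Of 26 genes within 2 Mb of the run, 11 were higher and 10 lower. Outside the runs, Zfp951 on chromosome 5 was the remaining member that was lower in UTX-AID (log2 fold change −0.44, SE 0.0941, edgeR adjusted p = 0.000227), with overlapping ranges of 8.08 to 12.6 CPM in BAP1-AID and 6.37 to 8.68 CPM in UTX-AID. With the offsets its log2 fold change was −1.27 (edgeR adjusted p = 4.88e-11). With IAA its ranges did not overlap, at 11.8 to 14.6 CPM and 5.93 to 7.44 CPM (log2 fold change −1.02, −1.59 with the offsets). Zfp932, a repressor of endogenous retroviruses in ESCs, was at 10.5, 11.2 and 13.7 CPM in BAP1-AID and at 33.6, 39.2 and 43.0 CPM in UTX-AID (log2 fold change 1.76, 0.33 with the offsets).

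With IAA, the same comparison in the other 12 libraries again gave 51 members higher in UTX-AID and 6 lower, against 35.5% and 33.0% of all genes. The median was 1.19, and 0.45 with the offsets. The log2 fold change was 3.11 for Zfp991, 1.79 for Zfp980 and 1.56 for Zfp978, and with the offsets 2.30, 0.61 and 0.53. Zfp938, Zfp945, Zfp958 and Zfp977 turned to the other sign with the offsets, and Zfp958 (−0.38, edgeR adjusted p = 5.71e-07) and Zfp977 (−0.68, edgeR adjusted p = 6.32e-08) then passed as lower. Zfp970 was at 8.62, 9.97 and 17.1 CPM in BAP1-AID and 0.251, 0.333 and 0.574 CPM in UTX-AID (log2 fold change −5.07, SE 0.145, edgeR adjusted p = 3.27e-18).

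The cofactors through which KRAB zinc fingers act did not move one way. Of 26 corepressor genes, 11 were higher and 13 lower in UTX-AID without IAA, against 33.6% and 33.7% of all genes. With the offsets 10 were higher and 14 lower, against 5673 and 5281 of 16816 genes. Trim28, which the KRAB domain binds, was at 1701.8 to 1864.1 CPM in BAP1-AID and at 910 to 1027 CPM in UTX-AID (log2 fold change −0.89, edgeR adjusted p = 3.67e-16). Setdb1, the H3K9 methyltransferase, had a log2 fold change of −0.57. Atrx, a chromatin remodeller, was at 48 to 61.3 CPM and at 398 to 459 CPM (log2 fold change 2.92), and Cbx3, which encodes HP1 gamma, had a log2 fold change of 1.73. These values are without the offsets. With them the highest log2 fold change among the 26 genes was 1.62. Then 3 genes passed as higher and 1 as lower with a log2 fold change over 1, against 7 and 0 without the offsets.

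The effect of BAP1 depletion was addressed by comparing +IAA with −IAA in BAP1-AID over the 3 RA times. Without untagged cells given IAA, an effect of IAA itself cannot be told apart from the loss of BAP1. The same holds for UTX in UTX-AID. Most members were higher with IAA. The summed level of the members was between 781 and 1004.1 CPM without IAA and between 1136.4 and 1695.8 CPM with IAA, without overlap. By edgeR 44 of 60 members were higher and 3 were lower, against 17.9% and 18.2% of 15695 genes tested. No member had a mean log2 fold change over 1. The median was 0.55, against 0.07 for the other numbered Zfp genes (108 higher and 43 lower of 284) and −0.04 for all genes. In 23 members every +IAA library was above every −IAA library, against 7.57% of all genes.

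This IAA effect also moved with GC content across genes (Spearman's rho −0.478, n = 15168 genes). With the offsets, 21 members were higher and 6 lower, against 2231 and 1931 of 15695 genes. The median was 0.19, against 0.01 for all genes. Zfp931, Zfp944 and Zfp992 turned sign with the offsets, and none of the 3 passed then. Among the 26 corepressor genes, 12 rose and 5 fell on the counts, against the 17.9% and 18.2% of all genes given above. With the offsets 10 rose and 2 fell, against 2231 and 1931 of 15695 genes.

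All 13 members of the chromosome 4 run were higher with IAA in BAP1-AID (median log2 fold change 0.67). Zfp980 was at 48.2, 64.0 and 72.2 CPM in the −IAA arm and reached 83.0, 94.1 and 153 CPM in the +IAA arm, so the arms did not overlap. Its log2 fold change was 0.83 (SE 0.0448, edgeR adjusted p = 4.79e-07), or 0.37 with the offsets. Zfp978 rose by 0.90 (SE 0.0581, edgeR adjusted p = 9.28e-07), from 46.3 to 65.1 CPM without IAA to 81.6 to 152 CPM with it. The log2 fold changes of Zfp988, Zfp981 and Zfp987 were 0.94, 0.81 and 0.70, and with the offsets that of Zfp988 was 0.44 and that of Zfp987 0.34. In the chromosome 2 run, 7 of 9 members were higher, and Zfp971, nearly silent in the other clone, went from 4.96 to 7.23 CPM without IAA to 9.04 to 12.7 CPM with IAA.

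In the chromosome 17 run 6 of 10 members were higher with IAA. Zfp945, one of the members without KRAB letters, was at 12.5, 13.8 and 14.9 CPM in the −IAA arm, against 15.7, 18 and 30.9 CPM in the +IAA arm (log2 fold change 0.63, 0.11 with the offsets), and the arms did not overlap. Zfp932 had a log2 fold change of 0.58 (edgeR adjusted p = 8.29e-05, 0.16 with the offsets) and Zfp982 one of 0.54 (edgeR adjusted p = 0.000814, 0.01 with the offsets). The 3 members that fell in BAP1-AID stand alone in the genome. Zfp956, which also lacks KRAB letters and overlaps Zfp783 on the same strand, was at 6.41, 7.76 and 8.82 CPM in the −IAA arm, against 4.37, 5.28 and 5.97 CPM in the +IAA arm (log2 fold change −0.52, SE 0.0862, edgeR adjusted p = 0.000574). Its exons have a GC content of 53.7%, the highest of the members with a protein, and its log2 fold change was −0.33 with the offsets. Zfp954 had a log2 fold change of −0.24 (SE 0.0739, edgeR adjusted p = 0.0224) and Zfp940 one of −0.23 (SE 0.0782, edgeR adjusted p = 0.0408). The calls on Zfp954 and Zfp940 were lost in 6 and 9 of the 12 fits that left out 1 library. The ranges of Zfp954 (15.3 to 19.7 CPM without IAA and 11.5 to 16.5 CPM with IAA) and Zfp940 (16.1 to 22.2 and 13.4 to 18.9 CPM) overlapped.

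At each RA time taken alone, more members passed at 6 h than at 0 or 3 h. At 0 h, 27 members were higher (11.8% of all genes), at 3 h 17 (8.68%) and at 6 h 38 (6.73%). The medians were 0.47, 0.25 and 0.83 on the log2 scale. With the offsets, 5 members were higher at 0 h, 2 at 3 h and 24 at 6 h, with medians of 0.03, 0.02 and 0.43. Over all 15695 genes with the offsets, 824, 339 and 594 were higher, so the shares of members at 0 and 3 h were near those of all genes. At 6 h, 18 members also had a log2 fold change over 1, against 1.09% of all genes, and with the offsets 2 did, against 48 of 15695 genes. Of these 18, 7 lie in the chromosome 4 run, 4 in the chromosome 2 run and 4 in the chromosome 17 run. Whether the effect differed between 0 and 6 h is the same test as whether IAA altered the RA response, which is given further on. A longer time since IAA was added and an altered RA response cannot be told apart.

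Zfp988 was at 12.6 and 15.9 CPM in the 2 BAP1-AID replicates without IAA at 0 h and at 24.2 and 22.5 CPM with IAA. At 6 h the values were 19.0 and 19.0 CPM without it and 51.4 and 53.7 CPM with it, a log2 fold change of 1.51 (SE 0.1, edgeR adjusted p = 3.57e-06) that was 0.87 with the offsets. The 4 libraries at 6 h were thus cleanly split by IAA. Zfp973, whose upstream sequence is identical to that of Zfp965, had 6 h values of 1.57 and 1.24 CPM in the −IAA arm and of 4.04 and 6.00 CPM in the +IAA arm (log2 fold change 1.88, edgeR adjusted p = 0.000444). At 0 h its values with IAA, 1.97 and 2.35 CPM, lay close to those without, 2.24 and 2.07 CPM. Zfp970 (1.24) and Zfp971 (1.25) were the other members of the chromosome 2 run with Zfp967 (1.33) above a log2 fold change of 1 at 6 h.

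**Figure D4:**
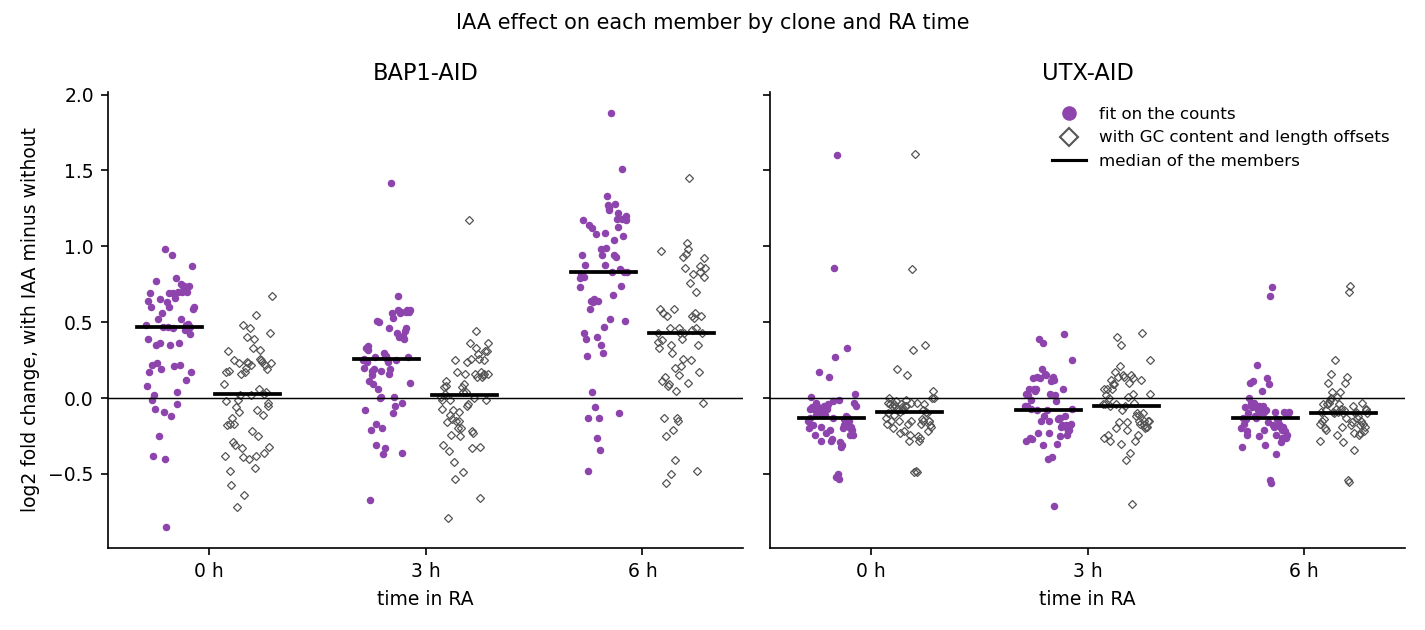
log2 fold change of each member, with IAA minus without, by RA time, for 60 members in BAP1-AID (left) and 57 in UTX-AID (right), with filled points for the fit on the counts, open diamonds for the fit with GC content and length offsets, and bars for the medians. In BAP1-AID the medians are 0.47, 0.25 and 0.83 and fall to 0.03, 0.02 and 0.43 with the offsets, while in UTX-AID the points centre slightly below 0.

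In UTX-AID, IAA changed few members, and those that passed were lower. Of the 57 members tested (Zfp965, Zfp971 and Zfp972 did not reach the count minimum), 0 were higher and 9 were lower by edgeR, against 0.861% and 1.76% of 16268 genes. At an unadjusted p under 0.05 there were 24 members, against 2543 of 16268 genes, and DESeq2 passed 14 members, all lower. The median was −0.10. With the offsets 9 members were lower and 0 higher, against 297 and 157 of 16268 genes. The count rested on single libraries: it was between 2 and 16 when 1 of the 12 was left out. It fell to 2 without +IAA 3 h replicate 2, +IAA 6 h replicate 1 or −IAA 6 h replicate 2, to 3 without +IAA 0 h replicate 2 or +IAA 3 h replicate 1, to 4 without +IAA 0 h replicate 1, −IAA 0 h replicate 2 or −IAA 3 h replicate 2, to 5 without +IAA 6 h replicate 2, and rose to 16 without −IAA 6 h replicate 1. At no single RA time did a member pass by edgeR, with 15, 15 and 12 at an unadjusted p under 0.05 at 0, 3 and 6 h. Over all 16268 genes these unadjusted counts were 1303, 1518 and 1019.

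Of the 9 members that fell, 7 lie in the chromosome 4 run. Zfp992 was at 249, 267 and 300 CPM in the −IAA arm, against 224, 229 and 258 CPM in the +IAA arm (log2 fold change −0.22, SE 0.0334, edgeR adjusted p = 0.00258). The log2 fold change was −0.23 for Zfp978, −0.21 for Zfp987 and −0.21 for Zfp990. Outside the run Zfp960, which shares 79.4% of its words with Zfp97, had a log2 fold change of −0.27 (SE 0.0569, edgeR adjusted p = 0.0226). Only Zfp990, at 351 to 421 CPM without IAA and 323 to 350.0 CPM with it, and Zfp975, at 26.9 to 32.6 and 23.2 to 26.6 CPM, had arms without overlap, against 0.443% of all genes. Of the 26 corepressor genes, 0 passed by edgeR in UTX-AID, with 3 at an unadjusted p under 0.05, against 2543 of 16268 genes.

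The difference between these 2 IAA effects was tested in 1 fit of all 24 libraries. It was lower in UTX-AID for 41 members and higher for 2, against 14.9% and 10.9% of all genes, with a median of −0.64. With the offsets 22 members were lower and 4 higher, against 1723 and 1396 of 16816 genes, and the median of the members was −0.23. For Zfp978 the IAA effect was 1.15 lower on the log2 scale in UTX-AID (difference −1.15, SE 0.0772, edgeR adjusted p = 1.39e-09), and for Zfp988 the difference was −1.14 (SE 0.0760, edgeR adjusted p = 1.39e-09). Zfp980 differed by −1.0 (SE 0.0657, edgeR adjusted p = 1.15e-09) and Zfp987 by −0.93 (SE 0.0669, edgeR adjusted p = 2.59e-09). The 2 members with a higher effect in UTX-AID were Zfp956 (difference 0.58, SE 0.115) and Zfp954 (0.28, SE 0.101), both of which fell with IAA in BAP1-AID. The IAA arms are shared between this test and the tests within each clone.

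RA by itself changed fewer members. In BAP1-AID without IAA, 9 members were higher at 6 h than at 0 h and 0 were lower by edgeR, against 10.8% and 5.08% of all genes, so the share of higher members (9 of 60) was near that of all genes. The median was 0.18, and −0.01 with the offsets, when 4 members were higher and 3 lower, against 1135 and 1136 of 15695 genes. The count fell to 4 without −IAA 0 h replicate 1 or without −IAA 6 h replicate 1, and to 5 without −IAA 6 h replicate 2. At 3 h, 9 members were higher, against 5.51%.

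Zfp949, on chromosome 9, had the largest log2 fold change of the 9. It overlaps 9430037G07Rik on the opposite strand. It was at 10.8 and 11.9 CPM at 0 h, at 12.4 and 13.7 CPM at 3 h and at 16.9 and 17.4 CPM at 6 h (log2 fold change 0.61, SE 0.1, edgeR adjusted p = 0.00124), so each time lay above the one before it. With the offsets its log2 fold change was 0.45. Zfp979 was at 63.3 and 70.6 CPM at 0 h and at 95.9 and 95.1 CPM at 6 h (0.53, SE 0.0885, edgeR adjusted p = 0.00139). The log2 fold changes were 0.52 for Zfp985, 0.45 for Zfp980 and 0.43 for Zfp988, all of the chromosome 4 run.

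In BAP1-AID with IAA, 28 members were higher at 6 h than at 0 h, against 8.93% of all genes, and the count was 17 without +IAA 0 h replicate 1. The median was 0.49, or 0.30 with the offsets, when 20 members were higher, against 1241 of 15695 genes. On the counts, a log2 fold change over 1 was reached by 4 of the 28 members, against 3.18% of all genes: Zfp973 (1.24), Zfp988 (1.20), Zfp967 (1.18) and Zfp987 (1.03). Zfp967 was at 7.43 and 9.22 CPM at 0 h, at 7.92 and 7.51 CPM at 3 h and at 21.3 and 15.7 CPM at 6 h, so its values separated at 6 h only. At 3 h 4 members were higher with IAA, against 4.61%: Zfp937, Zfp988, Zfp987 and Zfp990.

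Whether IAA altered the RA response in BAP1-AID was tested as the 6 h minus 0 h change with IAA minus that without. The time since IAA was added rose with RA time, so a longer time with IAA and an altered RA response cannot be told apart. Only Zfp987 passed, against 0.115% of all genes higher. Its levels at 0 and 6 h were 16.1 and 16.6 against 20.6 and 20.3 CPM without IAA, and 22.2 and 22.8 against 44.4 and 45.8 CPM with IAA. The difference of the RA responses was 0.69 on the log2 scale (SE 0.111, edgeR adjusted p = 0.0399), and 0.80 with the offsets. At an unadjusted p under 0.05 there were 26 members, against 1615 of 15695 genes, and DESeq2 passed 6 members. The call on Zfp987 was lost in 10 of the 12 fits that left out 1 BAP1-AID library, and between 0 and 9 members passed in those fits: 8 without −IAA 3 h replicate 1, 9 without −IAA 3 h replicate 2, 1 without −IAA 0 h replicate 1 and 0 without any of the other 9.

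**Figure D5:**
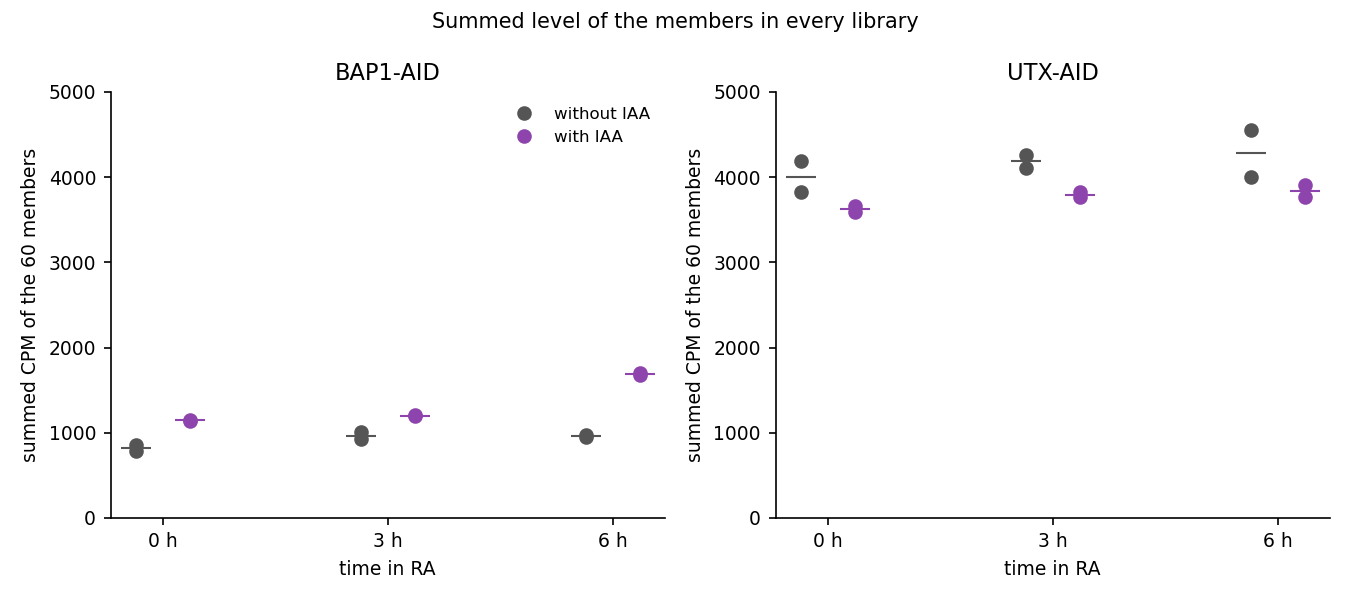
Summed CPM of the 60 members in each of the 24 libraries at 0, 3 and 6 h of RA, with grey points for libraries without IAA, purple points for libraries with IAA and bars for the mean of 2 replicates. In BAP1-AID the +IAA libraries at 6 h, at 1695.8 and 1679.8 CPM, lie above all others of that clone, and in UTX-AID all libraries lie between 3588.6 and 4552.8 CPM.

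In UTX-AID the RA response of the members was small. Without IAA 2 of 57 members were higher at 6 h, against 4.28% of all genes: Zfp937, at 23.5 and 23.8 CPM at 0 h and 28.9 and 33.5 CPM at 6 h (log2 fold change 0.40, SE 0.0945, edgeR adjusted p = 0.0161), and Zfp961 (0.27, SE 0.0636, edgeR adjusted p = 0.0151). The count was 0 without −IAA 0 h replicate 1, 1 without −IAA 6 h replicate 2 and 5 without −IAA 6 h replicate 1. With IAA 2 were higher, against 4.05%: Zfp961 (0.32) and Zfp988 (0.37), and the count was 1 without +IAA 0 h replicate 1 and 0 without +IAA 6 h replicate 2. At 3 h, 3 members were higher without IAA (Zfp961, Zfp988 and Zfp968), against 3.56%, and 1 with IAA (Zfp961), against 2.77%.

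Zfp961, a gene on chromosome 8 that overlaps Cyp4f18 on the opposite strand, was the member that rose with RA in both arms of UTX-AID at both times. Without IAA it was at 217 and 222 CPM at 0 h, at 263 and 263 CPM at 3 h and at 251 and 280.0 CPM at 6 h. With IAA it was at 203 and 204 CPM, at 232 and 248 CPM and at 247 and 259 CPM. Every library with RA was above those at 0 h of its arm. In BAP1-AID without IAA it was at 65.3 and 69.5 CPM at 0 h and at 86.3 and 86.0 CPM at 6 h (log2 fold change 0.37, edgeR adjusted p = 0.00304), and with IAA at 102 and 98.5 CPM and at 105 and 101 CPM (0.07, edgeR adjusted p = 0.59).

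IAA altered the RA response of 0 of 57 members in UTX-AID by edgeR, of 0 at an unadjusted p under 0.05 and of 0 by DESeq2, and the share of all genes that were higher was 0.0%. Over all 16268 genes, 558 had an unadjusted p under 0.05 in this test. The 6 h RA response without IAA was compared between the clones as well. By edgeR 0 of 60 members passed, with 10 at an unadjusted p under 0.05 (against 1689 of 16816 genes) and 1 by DESeq2. The edgeR shares over all genes were 0.0654% higher and 0.44% lower in UTX-AID. The count of members that passed by edgeR was 1 without BAP1-AID −IAA 3 h replicate 1 or replicate 2. For Zfp949 the response was lower in UTX-AID by 0.41 on the log2 scale (difference −0.41, SE 0.166, edgeR adjusted p = 0.362), and for Zfp979 the difference was −0.38 (SE 0.113, edgeR adjusted p = 0.167). A p above the threshold does not show that the responses were alike.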

How the data were processed

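Polyadenylated RNA of 24 ESC libraries was sequenced by the authors and aligned to mm39. The submitters' processing notes name HISAT2 (version 2.2.1), SAMtools (version 1.19), StringTie (version 2.2.1) and deepTools (version 3.5.4). The deposited table holds the authors' estimated counts per gene symbol, written as whole numbers and not normalized. Read length, strandedness and gene annotation are not given in the sources used here, and near-identical or overlapping genes may share reads.

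The line, IAA arm, RA time and replicate came from the titles of the libraries. CPM is 1000000 times a count over the library's sum. Counts were tested with edgeR 4.0.16 (R 4.3.3, limma 3.58.1) by the quasi-likelihood test with TMM factors (0.9654 to 1.03), filterByExpr by group (minimum count 10, minimum total 15) and Benjamini-Hochberg adjustment over all genes of a fit. The 24 libraries were fitted together for comparisons of the clones (16816 genes), and the 12 libraries of a clone for IAA and RA. A member passed at an adjusted p under 0.05. The standard error is the log2 fold change over the square root of F.

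Alternatives were DESeq2 1.42.0, RLE factors, no filter, the replicate number as a block, per-library offsets for GC content and exon length, fitted to log2 CPM by natural splines with 5 degrees of freedom, offsets with the block, other sets of libraries in the fit, a CPM minimum of 1 or 0.1, and each library left out. For every alternative fit other than the offsets alone, passing genes were counted among the members only, with no share over all genes. Coordinates, exons, upstream sequence and proteins came from GENCODE M39 on mm39 (23897 of 26264 symbols matched). A finger was counted as C, 2 to 4 residues, C, 12 residues, H, 3 to 5 residues and H or C. Named genes are the 5 with the highest CPM per kb, up to 8 per direction for the clones without overlap, up to 5 per direction for IAA (by adjusted p) and RA (by size), up to 4 per test of a difference, those at the CPM minimum, and Zfp932 and Zfp982. Others are named as members of a run or of a count after their values were seen. The members, lists and tests were chosen with earlier results of these data known. The replicates of a group had a Pearson correlation of 0.982 to 0.986 across genes on the log2 scale and held the same count in 1.62 to 2.14% of genes, so no library was counted as a copy.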

Additional observations from a re-analysis of the deposited data

Results flagged for a closer look

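The IAA effect differed between the clones in the test of that difference for 43 members. The 4 with the smallest adjusted p-values were Zfp980 (−1.0 on the log2 scale, UTX-AID minus BAP1-AID), Zfp978 (−1.15), Zfp988 (−1.14) and Zfp987 (−0.93), all of the chromosome 4 run. In these 4 genes the IAA effect was positive in BAP1-AID and negative in UTX-AID, though in UTX-AID that of Zfp980 did not pass (edgeR adjusted p = 0.0507). With GC content and length offsets the differences were −0.47, −0.73, −0.56 and −0.53.

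For Zfp987 the 6 h RA response in BAP1-AID was 0.69 higher on the log2 scale with IAA than without, by the test of that difference. A longer time since IAA was added cannot be told apart from an altered RA response. The call on Zfp987 was lost in 10 of 12 fits that left out 1 library.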

How the results depend on the processing

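The counts of members that differed between the clones, with or without IAA, stayed within 1.5 times their value under every alternative, and between 56 and 58 (without IAA) and 56 and 57 (with IAA) when 1 library was left out. The CPM minimum set the number of members to 57 at 1 CPM and 60 at 0.1 CPM. Apart from the fit with the offsets alone, the alternatives were counted among the members only. Whether those counts exceed the share over all genes is not known. With GC content and length offsets the count of members changed by IAA was 27 in BAP1-AID, also with the replicate block added, and that of members whose IAA effect differed between the clones was 26 in both. Left-out libraries gave 43 to 47 and 40 to 45 for these 2 counts. For IAA in UTX-AID the count was 14 with DESeq2, 15 with the replicate block, 15 with offsets and block, and 2 to 16 with 1 library left out. For 6 h of RA without IAA in BAP1-AID it was 5 with offsets and block (left out, 4 to 13, and 17 to 31 with IAA). In UTX-AID without IAA it was 5 with the block and 5 with offsets and block (left out, 0 to 5), and with IAA 4 and 5 (0 to 3). For the RA response altered by IAA in BAP1-AID the count was 2 with offsets, against 20 genes higher and 1 lower of 15695. It was 6 with DESeq2, 2 with offsets and block, 3 with all 24 libraries in 1 fit, 0 with the block, and 0 to 9 with 1 library left out. In UTX-AID it was 0 throughout. The RA response differed between the clones for 1 member with DESeq2 and for 0 to 1 with 1 library left out. With the offsets, calls between the clones reversed for 3 members without IAA (Zfp946, Zfp949 and Zfp983) and for 2 with IAA (Zfp958 and Zfp977). The cause of these shifts was not tested. Across all genes, samples with the same replicate number did not deviate together. Pearson's r was between −0.0387 and 0.0626 over 15 pairs of BAP1-AID groups. In UTX-AID it was between −0.0119 and 0.0724, also over 15 pairs of groups. In the summed CPM of the members, though, replicate 2 was above replicate 1 in every UTX-AID group, as at −IAA 6 h (4552.8 and 4005.9). In BAP1-AID replicate 1 was above replicate 2 in every group but −IAA 0 h. Whether the numbers pair the samples is therefore not settled. Depth limits Zfp965, Zfp971 and Zfp972 in UTX-AID, where libraries were at 0 or held few counts. With IAA, Zfp971 was at 0 in 2 of 6 UTX-AID libraries.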
